A study of Mus musculus with 8 samples.

Results

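The actin cytoskeleton genes described here are 52 named genes for actin, the proteins that bind its monomers, the Arp2/3 complex and its activators, formins, severing and capping proteins, bundlers such as fascin, membrane linkers and class I myosins. They were taken from the array table as the rows annotated to exactly 1 gene symbol, with the brightest row standing for a gene, which gave 49 of the 52 among 19938 genes in all. Actg1 appeared only on rows that name several genes, and Actr2 and Arpc3 were not analysed here.

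RNA came from 8 sorted samples of XCR1+ dendritic cells of the spleen, 1 array each, from untreated mice that carry a yellow fluorescent protein reporter in Il12b. All cells had been sorted as negative for lineage markers and negative or low for BST2, with high CD11c and with CD8α. The CCR7+Il12b+ fraction had CCR7 and the reporter (n = 2), the CCR7+Il12b- fraction had CCR7 without the reporter (n = 3), and the immature fraction had neither (n = 3). The labels name no age or sex and do not say whether samples came from separate or pooled mice, and the p-values given here therefore rest on sample-to-sample spread that could be technical. With 2 or 3 arrays in a group, their number limits the precision. The labels give an RNA input of 3 or 20 ng without saying which sample had which, so its part in the results was not tested. The study concerns the maturation that part of these cells undergo in untreated mice.

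Actin monomers join into filaments, and the kind of network depends on the proteins around them. The Arp2/3 complex, switched on by proteins of the WASP and WAVE families, builds branched networks that push the membrane forward, formins and Ena/VASP proteins lengthen unbranched filaments, and fascin and α-actinin tie filaments into bundles. Dendritic cells are known to take up material through ruffles and podosomes while immature and to carry long, fascin-rich processes and to migrate on chemokine gradients once mature.

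The sort was checked first on the genes behind it. Ccr7 was 15.7-fold higher in CCR7+Il12b+ cells and 12-fold higher in CCR7+Il12b- cells than in immature cells. Il12b was 38.2-fold higher in CCR7+Il12b+ cells and 13.7-fold higher in CCR7+Il12b- cells, although these cells were gated as lacking the reporter. All 12 markers of XCR1+ dendritic cells in the list used were above the background mark in every fraction. That mark, 4.98 on the log2 scale, is the level that 95% of 1194 receptor genes of the nose (olfactory and vomeronasal) stayed under. The summed linear signal of these 12 markers was 8355 to 9676 in CCR7+Il12b+, 12553 to 15023 in CCR7+Il12b- and 17355 to 18499 in immature samples. Xcr1 itself was at 8.12 and 7.64 in CCR7+Il12b+, at 9.85, 9.83 and 8.94 in CCR7+Il12b- and at 10.89, 10.98 and 10.82 in immature samples, lower in both CCR7+ fractions. Of the 12, 9 were lower and 1 (Batf3) higher in CCR7+Il12b+ than in immature cells at an adjusted p under 0.05 in limma. In CCR7+Il12b- cells 6 were lower and 1 (Batf3) higher. Of all genes, 17.9% were lower and 14.1% higher in CCR7+Il12b+ cells, and 14.5% lower and 9.10% higher in CCR7+Il12b- cells. The part of the shift in these markers in the results that follow was not tested. CCR7+Il12b- replicate 3 stood nearer to the CCR7+Il12b+ samples than its 2 fellows did, at 30.1 on the first principal component against 8.20 and 13.4 for them, while the CCR7+Il12b+ samples lay at 52.2 and 53.6 and the immature samples between -55.8 and -47.8.

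In CCR7+Il12b+ cells more actin genes fell than rose, as they did in CCR7+Il12b- cells with all arrays in the fit. The same excess was seen over all genes above the background mark. Of these, 27.1% fell and 19.3% rose in CCR7+Il12b+ cells, and 22.1% fell and 13.0% rose in CCR7+Il12b- cells. The single largest change of an actin gene was a rise. Fscn1, Marcksl1, Myo1g and Cdc42ep3 rose 3.35-fold or more in each, while Was, Myo1f, Coro1a and Gsn fell in each, and were lower in CCR7+Il12b+ than in CCR7+Il12b- cells. Some pairs of close relatives went opposite ways, with Wasl up and Was down, and Myo1g up and Myo1f down. Others moved together, with Marcks and Marcksl1 up, and Coro1a and Coro1c down. Actb, the gene of β-actin itself, gave a log2 change of 0.11 ± 0.11 (SE) in CCR7+Il12b+ cells and 0.087 ± 0.097 in CCR7+Il12b- cells, neither of them called.

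In CCR7+Il12b+ against immature cells 10 of the 49 genes rose and 17 fell at an adjusted p under 0.05 in limma, together 55.1% of the members beside 32.0% of all 19938 genes. By direction, 20.4% of the members were higher and 34.7% lower, beside 14.1% and 17.9% of all genes. In CCR7+Il12b- against immature cells 10 rose and 14 fell, together 49% of the members beside 23.6% of all genes. Here 20.4% of the members were higher and 28.6% lower, beside 9.10% and 14.5% of all genes. Of the members 47 were above the background mark in at least 1 fraction, and the 12934 genes of which that is true give a closer background. Of them 46.4% were called in CCR7+Il12b+ cells (19.3% higher, 27.1% lower) and 35.0% in CCR7+Il12b- cells (13.0% higher, 22.1% lower). Centring each array on its median moved the median change of all genes in CCR7+Il12b+ cells to -0.047, and gave 1798 higher and 4168 lower genes there in place of 2816 and 3567. In CCR7+Il12b- cells it gave 1301 higher and 3397 lower genes in place of 1814 and 2892. It brought the actin genes to 9 higher and 19 lower in CCR7+Il12b+ cells, and to 9 higher and 17 lower in CCR7+Il12b- cells. The median log2 change of the 49 was -0.10 in CCR7+Il12b+ cells, beside 0.093 over all genes, and -0.085 in CCR7+Il12b- cells, beside 0.061. The median size of the change, regardless of sign, was 0.49 in CCR7+Il12b+ cells, beside 0.25 over all genes, and 0.36 in CCR7+Il12b- cells, beside 0.18. In CCR7+Il12b- cells 9 genes rose and 8 fell without immature replicate 2, and 9 rose and 9 fell without immature replicate 3 or without CCR7+Il12b- replicate 3, so the excess of falls there rests on single arrays. These arrays measure RNA of whole sorted samples, in which fewer cells of a type and less RNA per cell cannot be told apart. The comparisons with immature cells share the same 3 immature samples.

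**Figure D1:**
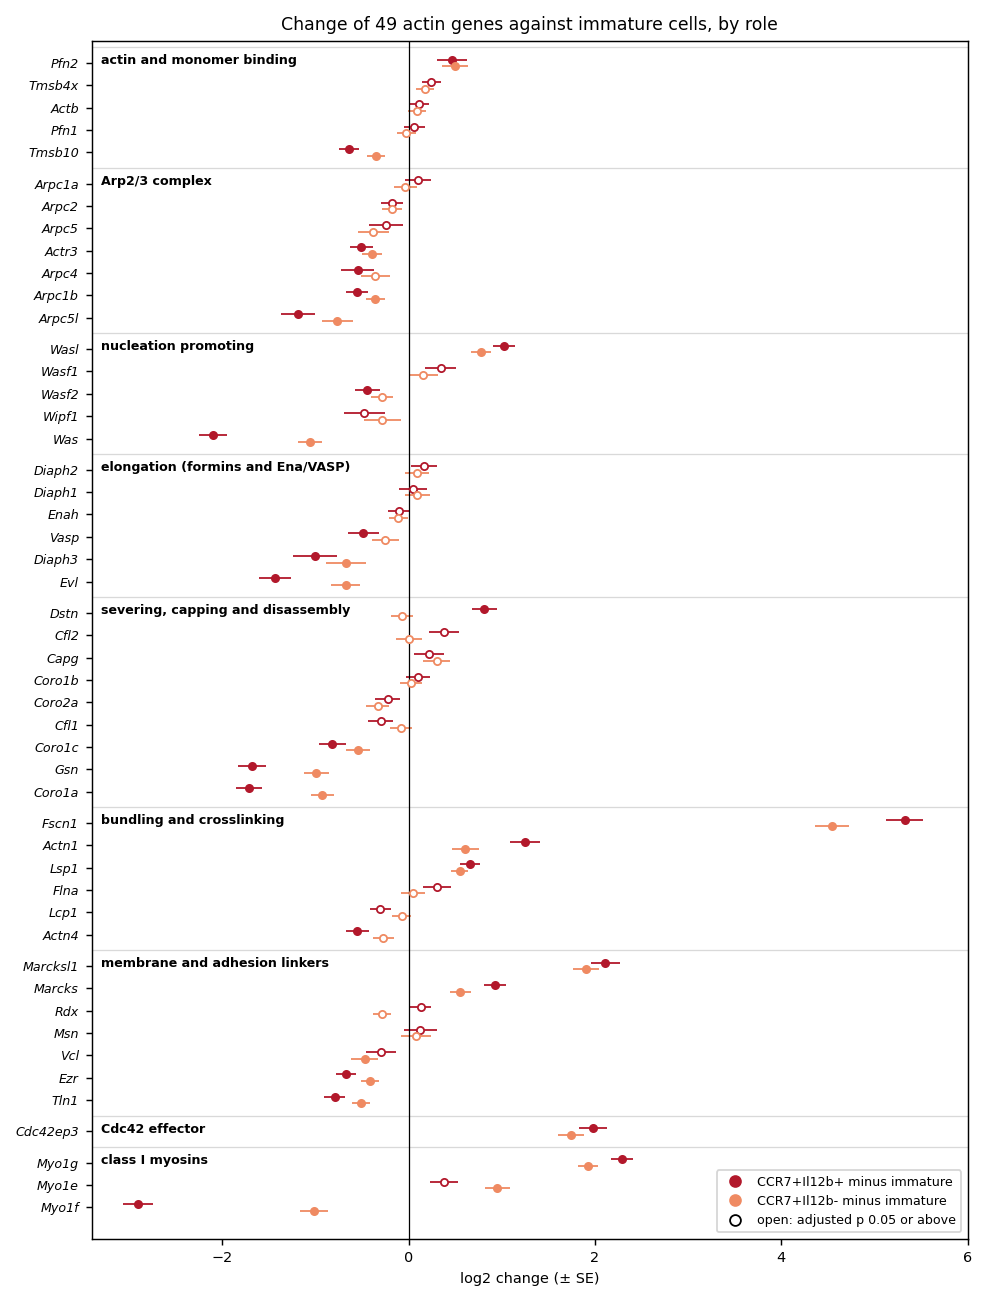
Log2 change (± SE) of the 49 measured actin genes in CCR7+Il12b+ cells (red, n = 2) and in CCR7+Il12b- cells (orange, n = 3) against immature cells (n = 3), grouped by role and sorted within it. Filled points had an adjusted p under 0.05 in limma. Fscn1 lies farthest to the right and Myo1f farthest to the left, and no measured Arp2/3 gene has a filled point to the right of 0.

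Picked from these results for a closer look were Fscn1, the steepest riser, and the pairs Was and Wasl and Myo1f and Myo1g, whose members went opposite ways. Their promoters are shown to let the windows of these related genes be read side by side. Each is the stretch from 250 bases before to 50 bases after the gene's start, from RefSeq on GRCm38.p6, written 5′ to 3′ on the gene's strand, with capitals marking a match to 1 of 5 motifs searched on both strands. The motifs were the NF-kB site, the serum response factor's CArG box, AP-1 (TGANTCA), a PU.1 core (GAGGAA) and an E-box (CACGTG), and no printed match overlaps another.
Fscn1, chr5:142960105-142960404, + strand: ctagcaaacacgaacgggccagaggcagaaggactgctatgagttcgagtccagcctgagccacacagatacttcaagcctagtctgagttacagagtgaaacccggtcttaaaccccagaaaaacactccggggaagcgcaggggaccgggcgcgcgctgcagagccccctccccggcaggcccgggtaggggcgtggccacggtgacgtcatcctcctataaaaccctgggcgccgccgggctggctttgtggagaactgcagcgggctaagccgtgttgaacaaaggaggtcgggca
Was, chrX:8090442-8090741, - strand: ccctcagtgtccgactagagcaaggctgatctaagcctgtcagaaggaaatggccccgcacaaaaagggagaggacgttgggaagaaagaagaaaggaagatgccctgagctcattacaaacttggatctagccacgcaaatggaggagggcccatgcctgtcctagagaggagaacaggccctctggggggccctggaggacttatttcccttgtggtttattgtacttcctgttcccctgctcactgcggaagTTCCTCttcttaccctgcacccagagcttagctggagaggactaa
Wasl, chr6:24664946-24665245, - strand: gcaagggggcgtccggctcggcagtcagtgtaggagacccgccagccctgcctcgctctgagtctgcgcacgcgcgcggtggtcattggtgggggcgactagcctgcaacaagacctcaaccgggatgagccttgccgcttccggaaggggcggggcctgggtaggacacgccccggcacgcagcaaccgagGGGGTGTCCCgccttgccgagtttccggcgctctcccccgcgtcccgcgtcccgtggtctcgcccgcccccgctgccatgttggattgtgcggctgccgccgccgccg
Myo1f, chr17:33555457-33555756, + strand: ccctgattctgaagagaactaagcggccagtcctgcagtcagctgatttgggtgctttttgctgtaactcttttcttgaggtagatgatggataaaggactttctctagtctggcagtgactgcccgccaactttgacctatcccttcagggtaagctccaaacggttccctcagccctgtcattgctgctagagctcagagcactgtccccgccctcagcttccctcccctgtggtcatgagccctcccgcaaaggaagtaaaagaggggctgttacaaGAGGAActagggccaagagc
Myo1g, chr11:6520909-6521208, - strand: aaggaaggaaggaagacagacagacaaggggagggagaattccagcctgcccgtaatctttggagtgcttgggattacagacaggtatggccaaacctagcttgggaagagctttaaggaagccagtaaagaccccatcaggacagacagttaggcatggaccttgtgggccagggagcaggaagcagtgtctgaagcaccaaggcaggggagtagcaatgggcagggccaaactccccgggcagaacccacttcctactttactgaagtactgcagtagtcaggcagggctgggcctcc

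The Was window holds a PU.1 core on its opposite strand, at bases 6 to 11 after the start, and the Myo1f window holds one at bases 31 to 36. The Wasl window holds an NF-kB match, at -58 to -49. The windows of Fscn1 and Myo1g hold none of the 5 motifs. The Wasl window was 72.3% G and C with 36 CpG dinucleotides and that of Fscn1 61.7% with 21, while Was (53.3%) and Myo1f (53.0%) had 5 CpG each and Myo1g (55.0%) had 2. The median over all 32851 promoters in the table was 52.7% with 7 CpG. A PU.1 core occurred in 28.3% of all promoters and in 13 of the 54 promoter entries (24.1%) that cover 43 of the 49 genes, and an NF-kB match in 8.46% of all and 6 of the 54 (11.1%). A CArG box was found in 1.63% of all promoters and in 3 of the 54 (5.56%), those of Arpc4, Myo1e and Vcl. AP-1 gave 7.81% of all and 5.56% of the 54 entries, and the E-box 7.15% and 9.26%. These matches describe letters in a window and show no binding.

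Bundling and crosslinking genes held the largest rise. Fscn1, whose product fascin packs filaments into tight parallel bundles, was at 11.90 and 11.98 (log2 expression) in CCR7+Il12b+ samples, at 10.90, 11.20 and 11.38 in CCR7+Il12b- samples and at 6.24, 6.63 and 6.99 in immature samples. None of the 3 fractions overlapped another. Fscn1 rose 40.0-fold in CCR7+Il12b+ cells (5.32 ± 0.20 on the log2 scale, SE, adjusted p = 2.14e-08) and 23.3-fold in CCR7+Il12b- cells (4.54 ± 0.18, adjusted p = 4.37e-08). It was also 1.72-fold higher in CCR7+Il12b+ than in CCR7+Il12b- cells (0.78 ± 0.20, adjusted p = 0.0429), but that call was lost after median centring, with array weights, with a random replicate block (adjusted p = 0.0659), without immature replicate 2, without CCR7+Il12b- replicate 1 or 2 and without either CCR7+Il12b+ sample, with an adjusted p of up to 0.176 over all alternatives.

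Actn1, the gene of the crosslinker α-actinin-1, was at 10.33 and 10.15 in CCR7+Il12b+ samples, at 9.42, 9.44 and 9.94 in CCR7+Il12b- samples and at 9.04, 8.89 and 9.05 in immature samples. The fractions did not overlap, and CCR7+Il12b- replicate 3 was the highest of its group. It rose 2.38-fold in CCR7+Il12b+ (1.25 ± 0.16, adjusted p = 0.000118) and 1.52-fold in CCR7+Il12b- cells (0.61 ± 0.14, adjusted p = 0.0103, and 0.0514 without immature replicate 2). The close relative Actn4 was at 7.81 and 7.82 in CCR7+Il12b+ samples, 7.95 to 8.18 in CCR7+Il12b- samples and 8.28 to 8.50 in immature samples. Actn4 fell in CCR7+Il12b+ cells (-0.55 ± 0.12, adjusted p = 0.00489), and gave -0.27 ± 0.11 in CCR7+Il12b- cells (adjusted p = 0.106).

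Lsp1, a filament-binding protein of leukocytes, was at 12.06 and 12.08 in CCR7+Il12b+, 11.93 to 12 in CCR7+Il12b- and 11.37 to 11.45 in immature samples. It rose by 0.66 ± 0.10 in CCR7+Il12b+ cells and by 0.55 ± 0.09 in CCR7+Il12b- cells, and neither fraction overlapped the immature samples. The crosslinker gene Flna (filamin A) gave 0.31 ± 0.15 in CCR7+Il12b+ cells and 0.05 ± 0.13 in CCR7+Il12b- cells, and was not called. Lcp1, the gene of L-plastin, gave -0.30 ± 0.11 in CCR7+Il12b+ cells and -0.07 ± 0.10 in CCR7+Il12b- cells, also not called. Of the 6 bundling and crosslinking genes, 3 rose and 1 fell in CCR7+Il12b+, and 3 rose and none fell in CCR7+Il12b- cells. Of all genes above the background mark, 19.3% rose and 27.1% fell in CCR7+Il12b+ cells, and 13.0% rose and 22.1% fell in CCR7+Il12b- cells. Where 22.1% fell, a set of 6 can readily hold no gene that fell.

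Class I myosins, single-headed motors that join actin to membranes, moved in both directions. Myo1g, a myosin of blood cells, was at 12.13 and 11.85 in CCR7+Il12b+, at 11.56, 11.58 and 11.73 in CCR7+Il12b- and at 9.69, 9.70 and 9.72 in immature samples. It rose 4.89-fold in CCR7+Il12b+ (2.29 ± 0.12, adjusted p = 2.02e-07) and 3.79-fold in CCR7+Il12b- cells (1.92 ± 0.11, adjusted p = 5.61e-07). The immature samples lay close together and apart from all 5 others.

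Myo1f, also a myosin of immune cells, was at 7.07 and 6.83 in CCR7+Il12b+, at 8.92, 9.09 and 8.50 in CCR7+Il12b- and at 9.89, 9.85 and 9.82 in immature samples. It fell 7.47-fold in CCR7+Il12b+ cells (-2.90 ± 0.16, adjusted p = 3.27e-07) and 2.02-fold in CCR7+Il12b- cells (-1.02 ± 0.15, adjusted p = 0.000536). Every fraction was separate from the others, and CCR7+Il12b- replicate 3 was again the sample of its group nearest to CCR7+Il12b+. Myo1e, whose protein is found at sites of endocytosis and adhesion, was at 4.93 and 4.79 in CCR7+Il12b+, at 5.28, 5.30 and 5.72 in CCR7+Il12b- and at 4.54, 4.53 and 4.38 in immature samples. Of the 3 group means only that of CCR7+Il12b- lay above the background mark, so its rise there (adjusted p = 0.000401) is at least 1.37-fold, and the change in CCR7+Il12b+ cells was 0.38 ± 0.15 (adjusted p = 0.0745).

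**Figure D2:**
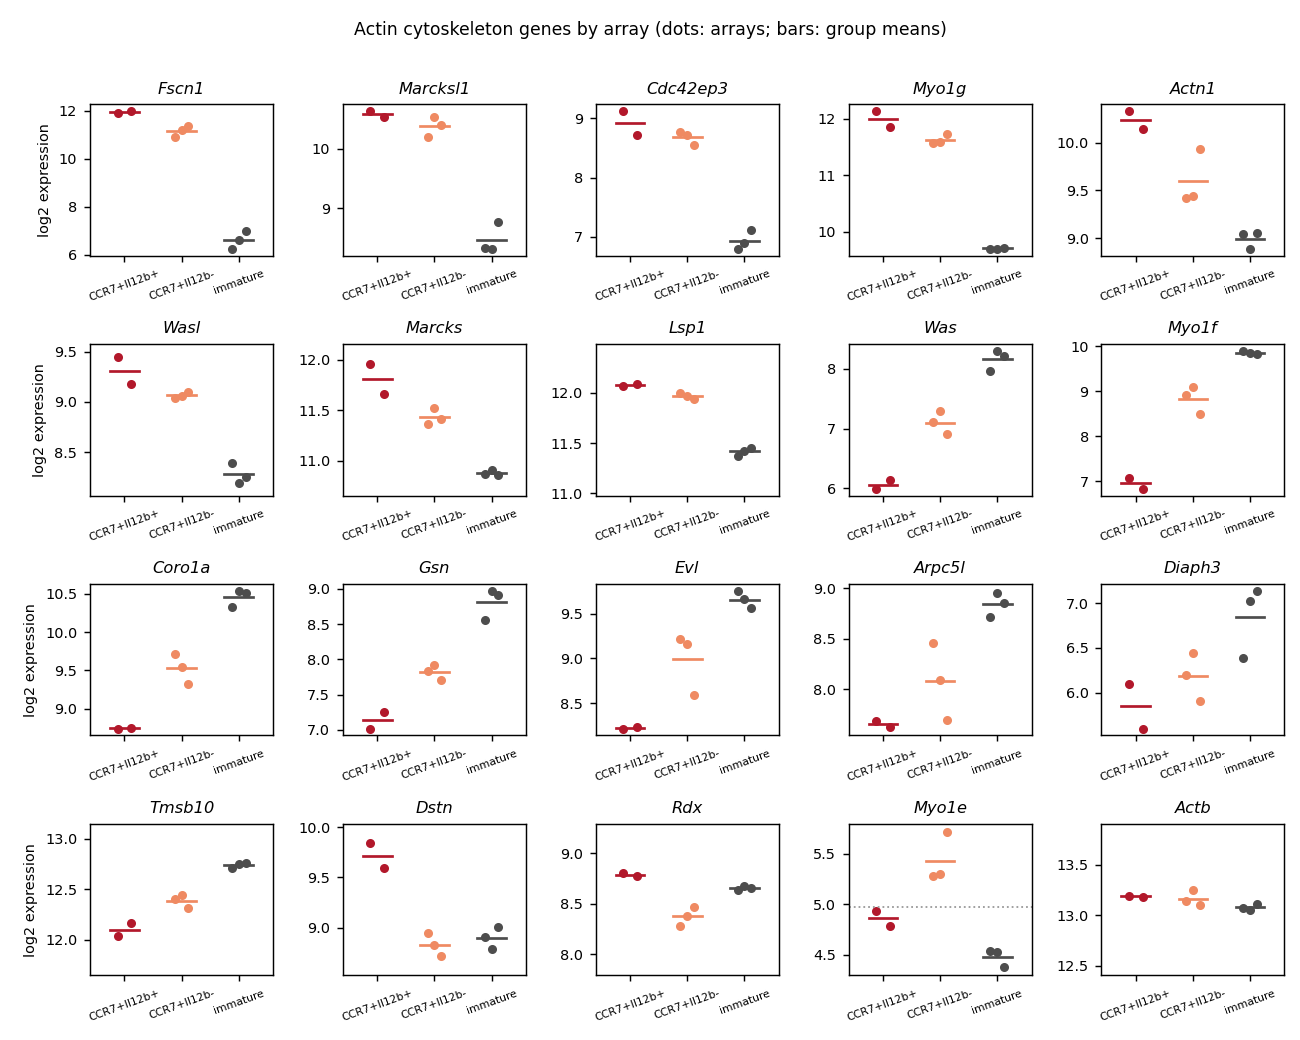
Log2 expression on each array (points) and group means (bars) of 20 actin genes in CCR7+Il12b+ (n = 2), CCR7+Il12b- (n = 3) and immature cells (n = 3), with a separate vertical scale in each panel and the background mark of 4.98 as a dotted line where it falls in range. Fscn1, Marcksl1, Cdc42ep3 and Myo1g step up in both CCR7+ fractions, Was, Myo1f, Coro1a, Gsn and Evl are lowest in CCR7+Il12b+ cells, and Dstn is high in CCR7+Il12b+ cells alone of the 3.

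Genes that start branched filaments moved apart. Was encodes WASP, the activator of Arp2/3 in blood cells that is missing in Wiskott-Aldrich syndrome, and was at 5.99 and 6.13 in CCR7+Il12b+, at 7.11, 7.29 and 6.90 in CCR7+Il12b- and at 7.97, 8.30 and 8.21 in immature samples. Each fraction stood clear of the next. Was fell 4.28-fold in CCR7+Il12b+ (-2.10 ± 0.15, adjusted p = 1.29e-06) and 2.08-fold in CCR7+Il12b- cells (-1.06 ± 0.13, adjusted p = 0.000190).

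Wasl encodes N-WASP, the relative of WASP made in most tissues, and was at 9.44 and 9.18 in CCR7+Il12b+, at 9.04, 9.06 and 9.10 in CCR7+Il12b- and at 8.40, 8.20 and 8.26 in immature samples. It rose 2.04-fold in CCR7+Il12b+ (1.03 ± 0.12, adjusted p = 6.27e-05) and 1.72-fold in CCR7+Il12b- cells (0.78 ± 0.11, adjusted p = 0.000418). Both CCR7+ fractions lay wholly above the immature samples for Wasl and wholly below them for Was. Wasf2, a WAVE protein, fell in CCR7+Il12b+ cells (-0.44 ± 0.13, adjusted p = 0.0243, not called after loess normalization, with the replicate block, without CCR7+Il12b+ replicate 2 or without immature replicate 2 or 3). Wasf1 and the WASP-binding Wipf1 were called in neither fraction, with values of 0.34 ± 0.17 and -0.47 ± 0.22 in CCR7+Il12b+ cells.

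The Arp2/3 complex itself was lower or not called. Of its 7 measured genes none rose, 4 fell in CCR7+Il12b+ and 3 fell in CCR7+Il12b- cells. Of all genes above the background mark, 19.3% rose and 27.1% fell in CCR7+Il12b+ cells, and 13.0% rose and 22.1% fell in CCR7+Il12b- cells. At these shares a set of 7 genes can readily hold no riser. The most changed was Arpc5l, an alternative form of the complex's smallest subunit, at 7.69 and 7.62 in CCR7+Il12b+, at 8.45, 8.09 and 7.70 in CCR7+Il12b- and at 8.72, 8.95 and 8.85 in immature samples. Arpc5l fell 2.27-fold in CCR7+Il12b+ (-1.19 ± 0.19, adjusted p = 0.000480) and 1.70-fold in CCR7+Il12b- cells (-0.76 ± 0.17, adjusted p = 0.00647), and the CCR7+Il12b- samples were spread widely between the other groups. The standard form Arpc5 gave -0.24 ± 0.18 in CCR7+Il12b+ cells and -0.38 ± 0.16 in CCR7+Il12b- cells and was not called.

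Actr3, which encodes the Arp3 subunit, fell by 0.51 ± 0.12 in CCR7+Il12b+ (adjusted p = 0.00765, and 0.0627 without CCR7+Il12b+ replicate 2) and by 0.39 ± 0.11 in CCR7+Il12b- cells (adjusted p = 0.0226). Its call in CCR7+Il12b- cells ended when either of immature replicates 2 and 3, or of CCR7+Il12b- replicates 2 and 3, was taken out. Arpc1b, the form of the p41 subunit prominent in blood cells, fell by 0.55 ± 0.11 in CCR7+Il12b+ and by 0.36 ± 0.10 in CCR7+Il12b- cells, where the call was lost after loess normalization, with the replicate block and without any 1 immature sample or CCR7+Il12b- replicate 2 or 3. Its relative Arpc1a was the least changed of the complex, at 8.11 and 7.81 in CCR7+Il12b+, 7.75 to 7.89 in CCR7+Il12b- and 7.67 to 7.97 in immature samples, all overlapping. Arpc4 was called only in CCR7+Il12b+ cells (-0.54 ± 0.18, adjusted p = 0.0378, lost after loess normalization, with the replicate block, in a fit of the compared groups alone and without either CCR7+Il12b+ sample, CCR7+Il12b- replicate 2 or immature replicate 2 or 3), and Arpc2 in neither.

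Of the 6 member genes whose proteins lengthen filaments, none rose. A set of 6 can readily hold no riser where 19.3% (CCR7+Il12b+) or 13.0% (CCR7+Il12b-) of genes above the background mark rose. Evl, an Ena/VASP protein of blood cells, was at 8.21 and 8.24 in CCR7+Il12b+, at 9.21, 9.16 and 8.59 in CCR7+Il12b- and at 9.76, 9.66 and 9.56 in immature samples. It fell 2.71-fold in CCR7+Il12b+ (-1.44 ± 0.17, adjusted p = 6.94e-05) and 1.59-fold in CCR7+Il12b- cells (-0.67 ± 0.15, adjusted p = 0.00866). The groups did not overlap, and CCR7+Il12b- replicate 3 was the lowest of its group.

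Diaph3, a formin also used in cell division, was at 6.09 and 5.60 in CCR7+Il12b+, at 6.20, 6.44 and 5.90 in CCR7+Il12b- and at 6.39, 7.02 and 7.13 in immature samples. It fell 2.01-fold in CCR7+Il12b+ cells (-1.0 ± 0.24, adjusted p = 0.00667, and 0.0953 without CCR7+Il12b+ replicate 2). In CCR7+Il12b- cells it differed by -0.67 ± 0.21 (adjusted p = 0.0407), with overlapping samples, and was not called with the replicate block or once immature replicate 2, immature replicate 3, CCR7+Il12b- replicate 1 or CCR7+Il12b- replicate 3 was taken out. Vasp fell in CCR7+Il12b+ cells (-0.49 ± 0.17, adjusted p = 0.0448, lost after quantile or loess normalization, with either replicate block and without either sample of that fraction, CCR7+Il12b- replicate 1 or immature replicate 2 or 3), and the formins Diaph1 and Diaph2 and the Ena/VASP gene Enah were called in neither fraction.

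Severing and disassembly genes fell or were not called, with 1 exception. Of these 9 genes, 3 fell and 1 rose in CCR7+Il12b+ cells, beside 27.1% and 19.3% of genes above the background mark. In CCR7+Il12b- cells 3 fell and none rose, beside 22.1% and 13.0%. Coro1a, the main coronin of leukocytes, which binds filaments and Arp2/3, was at 8.74 and 8.74 in CCR7+Il12b+, at 9.72, 9.54 and 9.33 in CCR7+Il12b- and at 10.32, 10.54 and 10.51 in immature samples. It fell 3.28-fold in CCR7+Il12b+ (-1.71 ± 0.14, adjusted p = 3.05e-06) and 1.90-fold in CCR7+Il12b- cells (-0.92 ± 0.12, adjusted p = 0.000274). The 3 groups formed 3 separate steps.

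Gsn, the gene of gelsolin, which cuts and caps filaments in response to calcium, was at 7.02 and 7.25 in CCR7+Il12b+, at 7.83, 7.92 and 7.70 in CCR7+Il12b- and at 8.55, 8.97 and 8.91 in immature samples. It fell 3.20-fold in CCR7+Il12b+ (-1.68 ± 0.15, adjusted p = 7.22e-06) and 1.99-fold in CCR7+Il12b- cells (-0.99 ± 0.13, adjusted p = 0.000321), again in separate steps. Coro1c, another coronin, fell by 0.82 ± 0.14 in CCR7+Il12b+ cells and by 0.55 ± 0.13 in CCR7+Il12b- cells, where the adjusted p was 0.0512 without immature replicate 2. The cofilin gene Cfl1 gave -0.30 ± 0.13 in CCR7+Il12b+ cells and -0.08 ± 0.12 in CCR7+Il12b- cells and was not called. Cfl2, Coro1b and Coro2a were not called either, and Capg was below the background mark in every fraction.

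The exception was Dstn, which encodes destrin, a close relative of cofilin that strips subunits from filaments. It was at 9.84 and 9.59 in CCR7+Il12b+, at 8.95, 8.83 and 8.72 in CCR7+Il12b- and at 8.91, 8.79 and 9.01 in immature samples. Both CCR7+Il12b+ samples lay above all others, and the other 2 fractions overlapped. Dstn rose 1.76-fold in CCR7+Il12b+ against immature cells (0.81 ± 0.13, adjusted p = 0.000537), while its change in CCR7+Il12b- cells was -0.07 ± 0.12 (adjusted p = 0.715).

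Membrane and adhesion linkers gave rises of the MARCKS genes and falls of others. MARCKS proteins bind acidic lipids of the plasma membrane and filaments, and let go of the membrane when phosphorylated by protein kinase C. Marcksl1 was at 10.63 and 10.54 in CCR7+Il12b+, at 10.19, 10.53 and 10.40 in CCR7+Il12b- and at 8.33, 8.31 and 8.76 in immature samples. It rose 4.33-fold in CCR7+Il12b+ (2.11 ± 0.16, adjusted p = 2.16e-06) and 3.74-fold in CCR7+Il12b- cells (1.90 ± 0.14, adjusted p = 5.35e-06), with a gap of over 1 log2 unit between both CCR7+ fractions and the immature samples.

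Marcks was at 11.95 and 11.66 in CCR7+Il12b+, at 11.37, 11.52 and 11.42 in CCR7+Il12b- and at 10.87, 10.91 and 10.85 in immature samples, and rose by 0.93 ± 0.12 in CCR7+Il12b+ cells and by 0.56 ± 0.11 in CCR7+Il12b- cells. No sample of a CCR7+ fraction overlapped the immature range. Tln1, the gene of talin, which ties integrins to actin, fell by 0.79 ± 0.11 in CCR7+Il12b+ and by 0.51 ± 0.10 in CCR7+Il12b- cells. Ezr, the gene of ezrin, which ties filaments to membrane proteins, fell by 0.67 ± 0.11 in CCR7+Il12b+ cells and by 0.41 ± 0.10 in CCR7+Il12b- cells, where it was not called after loess normalization (adjusted p = 0.0519).

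Ezrin's relatives moesin (Msn) and radixin (Rdx) were called against immature cells in neither fraction, and the moesin gene was the least changed linker in CCR7+Il12b- cells, at 9.79 and 9.79 in CCR7+Il12b+, 9.56 to 10.07 in CCR7+Il12b- and 9.41 to 9.79 in immature samples. Vcl, the gene of vinculin, differed in CCR7+Il12b- cells (-0.47 ± 0.14, adjusted p = 0.0339), a call that ended with the replicate block and with the removal of immature replicate 2, immature replicate 3, CCR7+Il12b- replicate 1 or CCR7+Il12b- replicate 3. Cdc42ep3, an effector of the GTPase Cdc42, was at 9.12 and 8.72 in CCR7+Il12b+, at 8.77, 8.71 and 8.55 in CCR7+Il12b- and at 6.79, 6.90 and 7.11 in immature samples. It rose 3.95-fold in CCR7+Il12b+ cells (1.98 ± 0.15, adjusted p = 2.30e-06) and 3.35-fold in CCR7+Il12b- cells (1.74 ± 0.14, adjusted p = 7.06e-06), with the CCR7+ fractions overlapping each other and neither overlapping the immature samples.

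Among actin and the monomer-binding proteins 1 gene above the background mark, Tmsb10, was called. Actb was at 13.19 and 13.18 in CCR7+Il12b+, 13.10 to 13.25 in CCR7+Il12b- and 13.05 to 13.11 in immature samples, so that the CCR7+Il12b- samples overlapped both other groups. Profilin-1 (Pfn1), which delivers monomers to growing ends, gave 0.062 ± 0.11 in CCR7+Il12b+ cells and -0.022 ± 0.099 in CCR7+Il12b- cells. Thymosin β4 (Tmsb4x), which holds monomers in reserve, gave 0.25 ± 0.11 in CCR7+Il12b+ cells (adjusted p = 0.102) and 0.18 ± 0.094 in CCR7+Il12b- cells (adjusted p = 0.214). The related thymosin β10 gene, Tmsb10, was at 12.04 and 12.17 in CCR7+Il12b+, at 12.40, 12.45 and 12.32 in CCR7+Il12b- and at 12.71, 12.75 and 12.76 in immature samples, in steps that did not overlap. Tmsb10 fell by 0.64 ± 0.11 in CCR7+Il12b+ cells (adjusted p = 0.000876) and by 0.35 ± 0.10 in CCR7+Il12b- cells (adjusted p = 0.0231, lost without CCR7+Il12b- replicate 3 or without immature replicate 2 or 3). Pfn2 was called higher in both but lay below the background mark in every fraction, so no size is given.

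The CCR7+ fractions were then compared with each other, which asks what goes with the Il12b reporter among cells that already have CCR7. Of the 49 genes 4 were higher and 6 lower in CCR7+Il12b+ than in CCR7+Il12b- cells, together 20.4%, beside 7.08% of all genes and 10.8% of those above the background mark. By direction, 8.16% of the members were higher and 12.2% lower, beside 2.61% and 4.47% of all genes and 3.97% and 6.85% of those above the mark. The split was 2 higher and 6 lower after quantile normalization and 1 and 6 after median centring. The median change of the 49 was -0.0043, and that of all genes 0.020. The largest difference was that of Myo1f, 3.70-fold lower in CCR7+Il12b+ cells (-1.89 ± 0.16, adjusted p = 0.000175), followed by Was, 2.06-fold lower (-1.04 ± 0.15, adjusted p = 0.00179). Dstn was 1.85-fold higher (0.88 ± 0.13, adjusted p = 0.00224) and Coro1a 1.73-fold lower (-0.79 ± 0.14, adjusted p = 0.00574). The calls of these 4 genes held under every alternative tried.

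The other 6 calls of this comparison were lost under some alternatives. Evl was 1.70-fold lower in CCR7+Il12b+ cells (adjusted p = 0.0231) and Gsn 1.61-fold lower (adjusted p = 0.0190), and both calls ended without CCR7+Il12b- replicate 1 or 2 or CCR7+Il12b+ replicate 1, that of Evl also without CCR7+Il12b+ replicate 2 and in a fit of the compared fractions alone. Actn1 was 1.56-fold higher (adjusted p = 0.0384), a call that held in 7 of 17 alternatives, among them without CCR7+Il12b- replicate 3 (0.00349). It was lost after quantile normalization or median centring, with a random replicate block (adjusted p = 0.0540), in a fit of the compared fractions alone, and without immature replicate 2 or 3 or any other sample of those fractions. Rdx was at 8.81 and 8.77 in CCR7+Il12b+, against 8.28, 8.38 and 8.47 in CCR7+Il12b- samples, and was 1.33-fold higher (adjusted p = 0.0474), a call that held in 3 of 17 alternatives. Myo1e was at least 1.37-fold lower (adjusted p = 0.0421), since its CCR7+Il12b+ mean lay below the background mark, and held in 7 of 17. Fscn1 completes the list. The genes called higher numbered 1 without immature replicate 2, CCR7+Il12b- replicate 1, CCR7+Il12b- replicate 2 or CCR7+Il12b+ replicate 1, and 2 without immature replicate 3 or CCR7+Il12b+ replicate 2. Those called lower numbered 3 without CCR7+Il12b- replicate 2 or CCR7+Il12b+ replicate 1.

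Several of the steepest risers against immature cells showed smaller values in this comparison. Marcksl1 gave 0.21 ± 0.16 (adjusted p = 0.591), Cdc42ep3 0.24 ± 0.15 (0.477), Wasl 0.24 ± 0.12 (0.332) and Myo1g 0.37 ± 0.12 (0.109), none of them called. No gene of the Arp2/3 complex was called here, with changes from -0.42 to 0.14, and none of the monomer-binding genes, from -0.29 to 0.085. Of all genes above the background mark 10.8% were called in this comparison. At that share sets of 7 and 5 measured genes can readily hold no call.

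**Figure D3:**
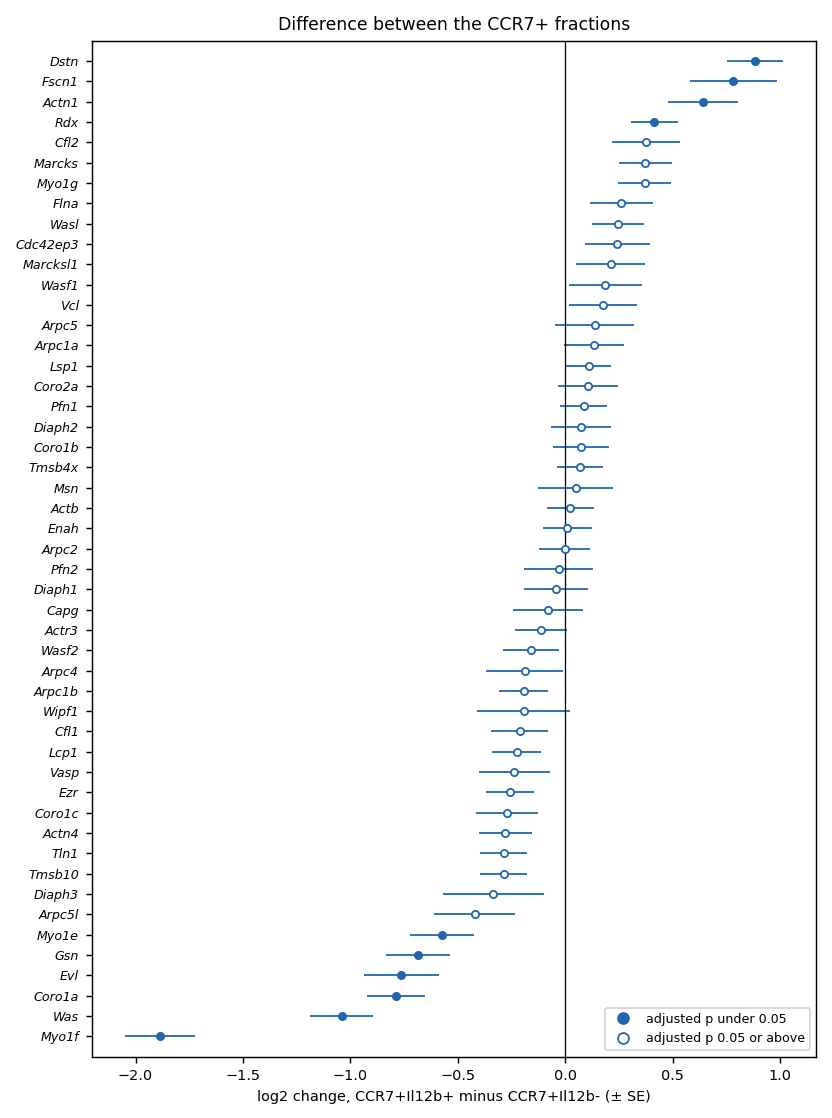
Log2 change (± SE) of the 49 actin genes in CCR7+Il12b+ (n = 2) against CCR7+Il12b- cells (n = 3), sorted by size. Filled points had an adjusted p under 0.05 in limma: 4 genes on the right, led by Dstn, and 6 on the left, with Myo1f at -1.89 and Was at -1.04 farthest out.

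A second list of 71 genes that act on the same machinery, 66 of them measured, was read beside the members. In CCR7+Il12b+ against immature cells 15 rose and 19 fell, and in CCR7+Il12b- cells 14 rose and 17 fell. Together that is 51.5% of the 66 in CCR7+Il12b+ cells, beside 46.4% of all genes above the background mark, and 47% in CCR7+Il12b- cells, beside 35.0%. By direction, 22.7% of the 66 were higher and 28.8% lower in CCR7+Il12b+ cells, beside 19.3% and 27.1% of genes above the mark. In CCR7+Il12b- cells 21.2% were higher and 25.8% lower, beside 13.0% and 22.1%. Between the CCR7+ fractions 5 were higher in CCR7+Il12b+ cells and 9 lower, together 21.2% of the 66. That stands beside 7.08% of all genes and 10.8% of those above the mark. The total of 14 was 5 without CCR7+Il12b- replicate 2, 7 without CCR7+Il12b- replicate 1, and 8 without CCR7+Il12b+ replicate 1 or immature replicate 2 and 9 without CCR7+Il12b+ replicate 2. Changes of at least 1 log2 unit were called for 17 of the 66. Of these, 9 rose and 8 fell in CCR7+Il12b+ cells. The share of all genes with called changes of that size was not worked out, so this count is not read as a trait of the list.

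The largest rise on this list was that of Swap70, which encodes a filament-binding protein that works with Rac. It was at 11.21 and 10.85 in CCR7+Il12b+, at 10.32, 10.31 and 10.57 in CCR7+Il12b- and at 7.27, 7.46 and 7.50 in immature samples. Swap70 rose 12.4-fold in CCR7+Il12b+ (3.63 ± 0.15, adjusted p = 2.67e-08) and 7.98-fold in CCR7+Il12b- cells (3.00 ± 0.13, adjusted p = 7.33e-08), with a wide gap to the immature samples.

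Genes that set the activity of cofilin went both ways. Ssh1, a phosphatase that switches cofilin on, was at 9.22 and 8.78 in CCR7+Il12b+, at 8.0, 8.36 and 8.40 in CCR7+Il12b- and at 5.88, 6.22 and 6.44 in immature samples, without overlap. It rose 7.08-fold in CCR7+Il12b+ cells and 4.22-fold in CCR7+Il12b- cells. Limk1, a kinase that switches cofilin off, fell by 0.92 ± 0.12 in CCR7+Il12b+ cells and by 0.38 ± 0.11 in CCR7+Il12b- cells, the smaller fall lost after quantile normalization and without CCR7+Il12b- replicate 1 or any 1 immature sample. Ssh2, a relative of Ssh1, fell by 0.82 ± 0.20 in CCR7+Il12b+ cells, a call lost without CCR7+Il12b+ replicate 2.

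The genes of Rac2 and of activators of Rac or Cdc42 went both ways. Rac2, the Rac of blood cells, was at 7.32 and 7.20 in CCR7+Il12b+, at 8.41, 8.66 and 8.25 in CCR7+Il12b- and at 9.39, 9.68 and 9.78 in immature samples, in separate steps. It fell 5.12-fold in CCR7+Il12b+ cells and 2.26-fold in CCR7+Il12b- cells. Dock8, which activates Cdc42 and is needed for dendritic cell migration, rose 2.12-fold in CCR7+Il12b+ cells and 1.64-fold in CCR7+Il12b- cells. Arhgef6, an activator of Rac and Cdc42, fell 2.37-fold in CCR7+Il12b+ cells and 1.66-fold in CCR7+Il12b- cells.

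Other large changes were in filament builders and partners. Daam1, a formin, was at 8.59 and 8.65 in CCR7+Il12b+, at 7.46, 7.77 and 8.30 in CCR7+Il12b- and at 5.56, 6.34 and 5.91 in immature samples, with CCR7+Il12b- replicate 3 the highest of its group. It rose 6.44-fold in CCR7+Il12b+ cells and 3.75-fold in CCR7+Il12b- cells. Tpm1, a tropomyosin that coats filaments, rose 3.60-fold in CCR7+Il12b+ cells and 1.91-fold in CCR7+Il12b- cells. Ptk2b, a kinase of adhesion sites, rose 2.21-fold in CCR7+Il12b+ cells and 2.04-fold in CCR7+Il12b- cells. Hcls1, the cortactin of blood cells, was at 7.12 and 7.34 in CCR7+Il12b+, at 9.32, 9.22 and 8.72 in CCR7+Il12b- and at 10.06, 10.13 and 10.15 in immature samples, in steps that did not overlap. It fell 7.36-fold in CCR7+Il12b+ cells and 2.04-fold in CCR7+Il12b- cells.

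Gmfg, which takes branched networks apart, fell 4.59-fold in CCR7+Il12b+ cells and 2.53-fold in CCR7+Il12b- cells on its brightest row. Its other row gave -0.13 (log2) for CCR7+Il12b+ cells and -0.15 for CCR7+Il12b- cells, so the size depends on the row. Twf2, which binds monomers, fell 3.23-fold in CCR7+Il12b+ cells and 2.00-fold in CCR7+Il12b- cells. Cotl1, a small filament-binding protein, fell 2.35-fold in CCR7+Il12b+ cells and 1.57-fold in CCR7+Il12b- cells, the smaller fall lost without immature replicate 2 or 3. The myosin light chain gene Myl12b fell 2.78-fold in CCR7+Il12b+ cells and 1.48-fold in CCR7+Il12b- cells. Fermt3, which activates integrins with talin, fell 2.43-fold in CCR7+Il12b+ cells and 1.72-fold in CCR7+Il12b- cells. Between the CCR7+ fractions, Hcls1 (-1.85 ± 0.17), Rac2 (-1.18 ± 0.16), Tpm1 (0.91 ± 0.12) and Myl12b (-0.91 ± 0.11) were called under every alternative tried. Of the 5 measured WAVE complex genes 1, Abi3, was called against immature cells. It was higher by 0.46 ± 0.12 in CCR7+Il12b+ cells. That call was lost after median centring and without immature replicate 2 or CCR7+Il12b+ replicate 1. For CCR7+Il12b- cells Abi3 was higher by 0.77 ± 0.11. Calls against immature cells covered 46.4% of genes above the background mark for CCR7+Il12b+ and 35.0% for CCR7+Il12b- cells. At these shares a set of 5 genes can readily hold only 1 call.

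**Figure D4:**
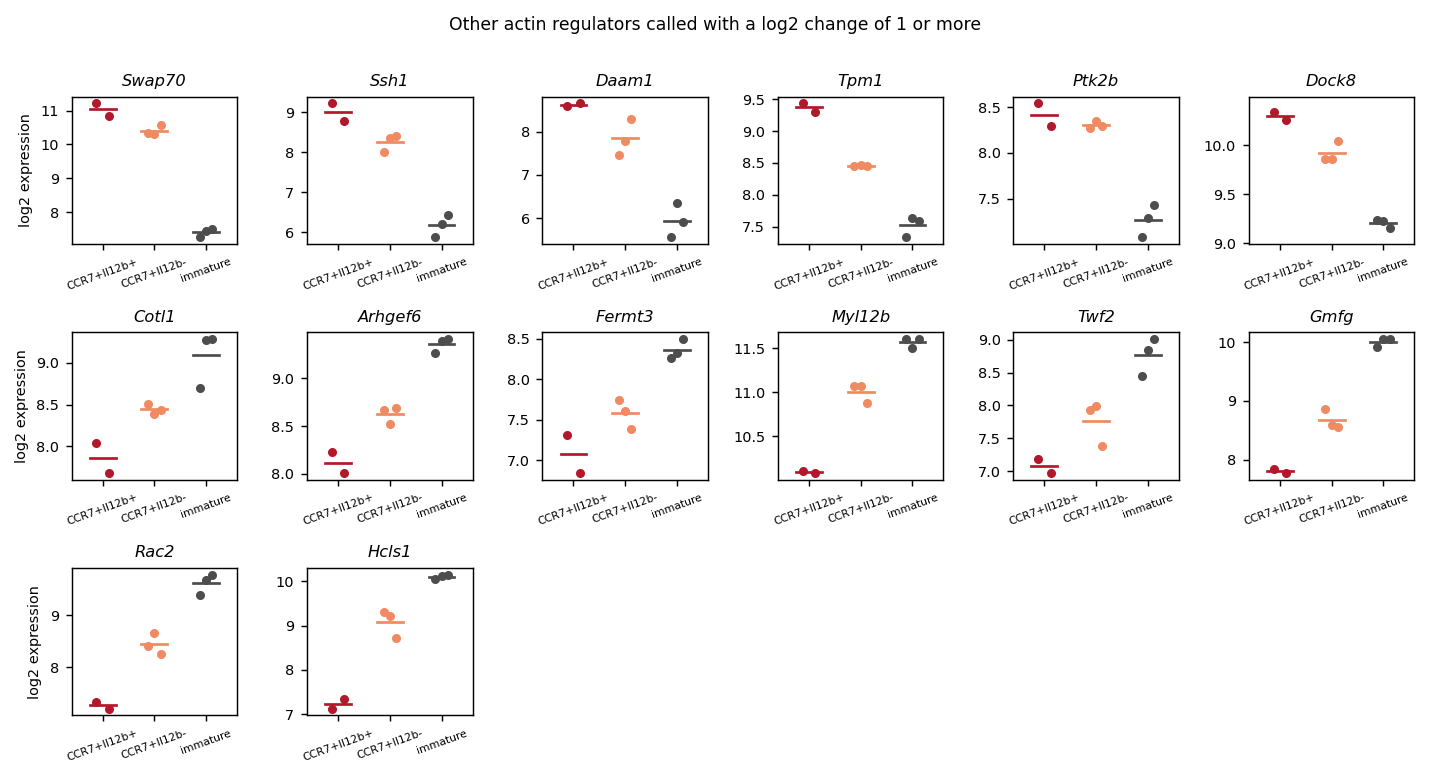
Log2 expression on each array (points) and group means (bars) of 14 of the 17 further actin regulators called with a log2 change of at least 1, in CCR7+Il12b+ (n = 2), CCR7+Il12b- (n = 3) and immature cells (n = 3), with a separate vertical scale in each panel. Swap70, Ssh1 and Daam1 lead the genes that are higher in both CCR7+ fractions, and Hcls1 and Rac2 show the largest falls in CCR7+Il12b+ cells.

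Markers of other cells were read in the same samples, and their part in these results was not tested. The summed linear signal of 9 macrophage markers was 4578 to 6145 in CCR7+Il12b+, 3892 to 5582 in CCR7+Il12b- and 2362 to 3238 in immature samples, with C1qc and Mertk below the background mark throughout. Of the 9, 3 were called higher in each CCR7+ fraction and 1 lower in CCR7+Il12b+. Of all genes, 14.1% were called higher and 17.9% lower in CCR7+Il12b+ cells, and 9.10% higher in CCR7+Il12b- cells. For platelets, which are rich in actin proteins, 6 markers summed to 172 to 201 in CCR7+Il12b+, 178 to 189 in CCR7+Il12b- and 155 to 168 in immature samples, with Pf4, Ppbp and Clec1b below the mark. The 7 markers of CD11b+ dendritic cells summed to 528 to 542 in CCR7+Il12b+, 698 to 805 in CCR7+Il12b- and 401 to 593 in immature samples, with Clec4a4 and Clec10a below the mark. These markers went both ways. Against immature cells Esam (1.41, log2) and Irf4 (0.88) were called higher and Cd209a (-2.03) lower in CCR7+Il12b+ cells. Sirpa (1.08), Esam (1.04) and Irf4 (1.02) were called higher and Cd209a (-1.02) lower in CCR7+Il12b- cells. The 6 B cell markers summed to 421 to 441 in CCR7+Il12b+, 590 to 784 in CCR7+Il12b- and 351 to 410 in immature samples, with Cd79a and Ebf1 below the mark. In CCR7+Il12b- cells 3 of the 6 were called higher, beside 9.10% of all genes. These were Ms4a1 (1.51 on the log2 scale), Cd79b (0.57) and Cd79a, which lay below the mark. In CCR7+Il12b+ cells Ms4a1 was called higher (0.91) and Cd79b (-0.58) and Cd22 (-0.91) lower.

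Markers of plasmacytoid dendritic cells ran the other way in sum, with 1 of them apart. The 4 measured summed to 205 to 206 in CCR7+Il12b+, 242 to 297 in CCR7+Il12b- and 456 to 531 in immature samples. Ccr9, Siglech and Tcf4 were called lower in both CCR7+ fractions. Pacsin1 was called higher in CCR7+Il12b- cells (0.43 on the log2 scale, adjusted p = 0.0156 in limma) and was not called in CCR7+Il12b+ cells (0.18). Of the stromal and endothelial markers, 5 of 6 were above the mark in at least 1 fraction and Cdh5 in none. The 6 summed to 214 to 276 in CCR7+Il12b+, 232 to 250 in CCR7+Il12b- and 326 to 352 in immature samples. Only Pecam1 among them was called against immature cells. It was lower by 1.79 (log2) in CCR7+Il12b- cells. Its CCR7+Il12b+ mean lay below the mark, so its fall there was at least 4.60-fold. The median log2 change of the 6 was 0.053 for CCR7+Il12b- and 0.18 for CCR7+Il12b+ cells. The 4 erythroid markers, with Car1 and Klf1 below the mark, summed to 133 to 148 in CCR7+Il12b+, 131 to 150 in CCR7+Il12b- and 118 to 123 in immature samples. Above the mark in at least 1 fraction were 3 of 6 T cell, 5 of 7 neutrophil and 0 of 5 NK cell markers.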

How the data were processed

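Each sample's deposited column holds log2 expression per probe set, which the authors made by RMA (package oligo) according to the submitters' processing notes. No version or genome build is stated in those notes. Per the labels' protocols, RNA went through 2 rounds of amplification before biotin labelling. The array medians of the deposited values ran from 5.25 to 5.46.

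Of 35556 rows, 21789 had 1 gene symbol in the platform's annotation, 1621 several and 12146 none. The row with the highest mean stood for each of 19938 genes. All 8 samples entered a single limma fit of 3 group means (limma 3.58.1, R 4.3.3; lmFit and eBayes). Tests were two-sided, with Benjamini-Hochberg adjustment over all genes and calls at an adjusted p under 0.05. No gene was removed before testing. A called change with 1 group mean below the background mark is given as a bound, with the higher of mark and value standing for that group on each array. The fit was tested on simulated data. Members and lists were chosen with earlier results of these data known. Values in every sample are given for members called with a log2 change of at least 1 in any comparison and for the most or least changed member of a role. They are given for only some of the further regulators. Alternatives were other scalings, filters, row rules, blocks and array weights, and leaving out each sample. Of the 17 further regulators with such a change, 3 are not reported here.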

Additional observations from a re-analysis of the deposited data

Results flagged for a closer look

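For 6 genes the changes of the CCR7+ fractions against immature cells had opposite signs while the direct difference between those fractions was called in limma. Dstn was 0.88 higher (log2) in CCR7+Il12b+ than in CCR7+Il12b- cells, and Rdx 0.41 higher. Among the further regulators Brk1, a small WAVE complex subunit, was 0.52 higher, at 10.11 and 10.08 in CCR7+Il12b+ samples against 9.63, 9.49 and 9.60 in CCR7+Il12b- samples. Vav1 (-0.53), Vav3 (-0.49) and Elmo1 (-0.55), which act upstream of Rac, were lower in CCR7+Il12b+ cells. Of the 6, only Dstn kept its call under every alternative tried.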

How the results depend on the processing

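No called change of a named gene turned direction under any of the 17 alternatives. Against immature cells, 21 of the 27 actin genes called in CCR7+Il12b+ and 15 of the 24 called in CCR7+Il12b- cells were called in every alternative, as were 4 of the 10 called between the CCR7+ fractions. Of actin genes called higher in CCR7+Il12b+ than in CCR7+Il12b- cells (4), 2 were left after quantile normalization, with array weights or in a fit of the compared groups alone, and 1 after median centring or with a random replicate block. Leaving out 1 sample at a time gave 1 to 4 higher and 3 to 6 lower in that comparison, 8 to 14 lower in CCR7+Il12b- against immature cells, and 5 to 16 of the further regulators between the CCR7+ fractions (14). Those regulators numbered 9 with the replicate block, 8 with array weights and 5 in a fit of the compared groups. The cause of these shifts was not tested. Same-numbered samples deviated with correlations from -0.17 to 0.22 over 7 pairs, so the numbers were not taken to pair samples. With the replicate block, 10 actin genes were higher and 14 lower in CCR7+Il12b+ cells, and 10 higher and 11 lower in CCR7+Il12b- cells, against immature cells, and 3 higher and 5 lower between the CCR7+ fractions. Genes near the background mark, such as Myo1e, Pfn2 and Capg, allow a bound or no size.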
